A study of Mus musculus with 12 samples.

Results

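The insulin-like growth factor (IGF) system was followed in day 7 thymic stroma through 10 genes. They were Igf1, the receptors Igf1r, Igf2r and Insr, and the binding proteins Igfbp2, Igfbp3, Igfbp4, Igfbp5, Igfbp6 and Igfbp7. The 10 genes were taken by name from 19938 genes that had a probe set of their own on the array, and the brightest probe set stood for a gene with more than 1. None of the 10 differed detectably by gonadal sex, by sex chromosome complement or between any of the paired genotypes tested. The members differed in how far they spread over the arrays. Igfbp5 spanned 2.28-fold between its lowest and highest array, Igfbp3 spanned 1.79-fold and Igfbp4 spanned 1.52-fold, while Insr spanned 1.22-fold.

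IGF1 is a secreted growth factor that signals through the receptor tyrosine kinase IGF1R, which activates the PI3K to AKT and the MAP kinase pathways. The insulin receptor is a close relative of IGF1R, whereas IGF2R, also known as the cation-independent mannose 6-phosphate receptor, carries IGF2 into the cell for degradation. The binding proteins hold IGFs outside the cell and can either shield them from the receptor or prolong their supply. In the thymus, IGF1 from stromal cells is known as a growth factor for epithelium and thymocytes, and growth hormone enlarges the organ partly through it.

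The FCG mouse model, here on a C57BL/6J background, separates gonadal sex from the sex chromosomes. Sry, the testis-determining gene, is deleted from the Y chromosome and supplied by an autosomal transgene, so XX and XY pups each occur with testes or with ovaries. The 12 arrays were 2 of XY gonadal males (XYM), 4 of XX gonadal males (XXM), 3 of XY gonadal females (XYF) and 3 of XX gonadal females (XXF), all from pups at 7 days of age, and each array is called here by the number in its label. The males carry the transgene in the thymus too, so an effect of testicular hormones and an effect of Sry itself cannot be told apart. Thymocytes had been washed out and the remaining epithelium and stroma were used for RNA, which was read on Affymetrix mouse gene arrays. The labels do not say whether each array was a separate pup or litter, so the p-values below measure the spread between these arrays, which may be partly technical. In bulk tissue, fewer cells of a type and less RNA per cell cannot be told apart.

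The labels held on all 12 arrays. Xist signal was 40.0 to 79.9 in XY and 8505 to 9884 in XX, the Y-linked Eif2s3y was 12061 to 13268 in XY and 37.6 to 55.7 in XX, and Sry was 2524 to 2836 in males and 415.8 to 564.5 in females. Array medians lay between 328 and 346, and arrays correlated at 0.97 to 0.99. All 8 markers of thymic epithelium, 7 of 7 of mesenchyme, 5 of 5 of pericytes and 6 of 6 of endothelium were brighter than 309.5, the 95th percentile of signal over 1035 probe sets for olfactory receptors, which served as background because the table has no detection call. All 9 thymocyte markers were also above it, so the preparation still held thymocyte RNA. The 3 measured B cell markers were below it. In gonadal females, which lack Sry, its probe set read 415.8 to 564.5. A signal above this reference therefore does not by itself show expression. The first principal component, 25.7% of the variance, followed array number rather than genotype. Its scores were 9.2 to 41.3 on arrays 6 and 9 to 12 and −24.4 to −3.3 on the others, so values within arrays 1 to 4, 5 to 8 and 9 to 12 are given where they bear on a gene.

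The promoters of Igfbp4 and Igfbp5 are shown because, of the pairs of binding proteins, this one had the highest Pearson correlation over the arrays (0.84). Igf1 and Igfbp4 also gave 0.84. Each run holds the 250 bases before a RefSeq start of the gene, 5′ to 3′ on its own strand, in build GRCm38.p6. The Igfbp4 window is chr11:99040994-99041243 on the plus strand. The start that follows it lies 1239 bases inside the annotated left end of the gene, so this window is within the annotated gene. The Igfbp5 window is chr1:72874866-72875115 on the minus strand and ends at the annotated gene start. Capitals mark TATAAA in Igfbp4, which begins at position −28 from the start, and TATTTAA in Igfbp5, which begins at position −51.
Igfbp4: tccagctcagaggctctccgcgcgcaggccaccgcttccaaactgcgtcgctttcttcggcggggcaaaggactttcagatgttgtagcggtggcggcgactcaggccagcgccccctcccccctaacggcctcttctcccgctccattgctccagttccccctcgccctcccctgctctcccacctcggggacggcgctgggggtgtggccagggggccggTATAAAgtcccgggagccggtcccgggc
Igfbp5: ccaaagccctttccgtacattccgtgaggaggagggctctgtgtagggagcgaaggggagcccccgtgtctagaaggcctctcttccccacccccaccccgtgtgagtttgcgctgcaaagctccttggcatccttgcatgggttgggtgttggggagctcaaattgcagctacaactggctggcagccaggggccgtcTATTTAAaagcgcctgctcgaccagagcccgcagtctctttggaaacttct
TATAAA, searched on both strands, occurred in 12.4% of 32851 RefSeq windows of this length, and in those of Igfbp4 and Igfbp6 among the 9 member genes with an entry. TATTTAA was searched after the Igfbp5 sequence had been read. It occurred in 4.18% of windows and, among the members, in Igfbp5. GGGCGG, the core of the GC box bound by SP1, occurred in 32.7% of windows and in those of Igf1r, Igf2r, Igfbp2 and Igfbp7. It was in neither sequence printed here. The 2 windows had a G and C content of 69.2% and 58.8%, where the median window had 52.4%. The match of a motif describes these letters and not a bound site.

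Igf1, the ligand among the 10 genes, is on chromosome 10. Its signal was 846 and 662 in XYM, 793, 822, 794 and 939 in XXM, 745, 704 and 675 in XYF, and 970, 865 and 665 in XXF. Of the 7 XX arrays 6 lay above 4 of the 5 XY arrays, but XXF array 11 was as low as the lowest XY arrays and XYM array 1 was high, so the complements overlapped. Igf1 averaged 726 ± 74.0 in XY (SD, n = 5) and 835 ± 102 in XX (SD, n = 7), and 809 ± 89.9 in gonadal males against 771 ± 122 in gonadal females (SD, n = 6 each). The XY minus XX difference was −0.19 on the log2 scale (SE 0.10), a ratio of 0.878 with a 95% interval from 0.752 to 1.02, and it was not significant in limma (unadjusted p = 0.0913, adjusted p = 1). The difference was −0.14 within arrays 1 to 4, −0.23 within arrays 5 to 8 and −0.24 within arrays 9 to 12. Arrays 5 to 8 held 1 XY array, XYF array 8, against 3 XX arrays. Without XXF array 11 it was −0.27 (unadjusted p = 0.0113, adjusted p = 0.955 in limma), and without XYM array 1 it was −0.28 (unadjusted p = 0.0313, adjusted p = 0.654, the lowest over the alternatives, which reached 1). The summed signal of the 7 mesenchyme markers moved with it, with a median of 10750 in XY and 12444 in XX (ranges 9724 to 12870 and 9609 to 14201). Of these 7 markers, 2 had an XY minus XX difference above 0. The 9 thymocyte markers also had a lower sum in XY (median 32347 against 34104 in XX), with r = −0.007 to Igf1. With genotype means removed that correlation was −0.73, and with array set means removed it was 0.14. For the mesenchyme markers and Igf1 the same 2 values were 0.86 and 0.82. The part of cell content in the Igf1 difference was not tested. The male minus female difference of Igf1 was 0.05 (SE 0.10, adjusted p = 0.985 in limma).

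The signalling receptors were among the steadiest members. Igf1r, on chromosome 7, gave 2061 and 1774 in XYM, 1938, 2050, 1962 and 1872 in XXM, 2092, 2184 and 1880 in XYF, and 2087, 1879 and 1868 in XXF. All 4 genotypes overlapped, and the coefficient of variation over the 12 arrays was 6.22%. By array number, Igf1r was 1938 to 2092 on arrays 1 to 4 and 1774 to 1880 on arrays 9 to 12, without overlap. Insr, the insulin receptor gene on chromosome 8, gave 1569 and 1494 in XYM, 1636, 1491, 1597 and 1631 in XXM, 1730, 1494 and 1602 in XYF, and 1617, 1418 and 1612 in XXF. Its coefficient of variation was 5.42%, the lowest of the 10. A second Insr probe set had a mean signal of 1367 and a male minus female difference of 0.09, against −0.02 for the brighter one, and neither passed the test (adjusted p = 0.985 and 0.993 in limma). For Igf1r the male minus female difference was −0.04 (SE 0.07, ratio 0.969, 95% interval 0.876 to 1.07) and the XY minus XX difference was 0.02 (ratio 1.02, 95% interval 0.917 to 1.12).

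Igf2r, the clearance receptor on chromosome 17, gave 1323 and 1075 in XYM, 1222, 1220, 1257 and 1290 in XXM, 1236, 1248 and 1069 in XYF, and 1294, 1262 and 1177 in XXF. XYM array 9 and XYF array 12 were its lowest arrays, and both belonged to the last set of 4. The XY minus XX difference was 0.02 within arrays 1 to 4, 0.00 within arrays 5 to 8 (1 XY array against 3 XX) and −0.20 within arrays 9 to 12. The fitted difference was −0.07 (SE 0.07, adjusted p = 1 in limma). Igf2, the ligand that IGF2R clears, is not among the 10 but was measured beside them. It ranged from 1701 to 2527 in XYM, 2198 to 2603 in XXM, 2066 to 2440 in XYF and 1874 to 3074 in XXF, and neither its male minus female difference (−0.07, SE 0.13, adjusted p = 0.985) nor its XY minus XX difference (−0.12, SE 0.13, adjusted p = 1) passed the test in limma.

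**Figure D1:**
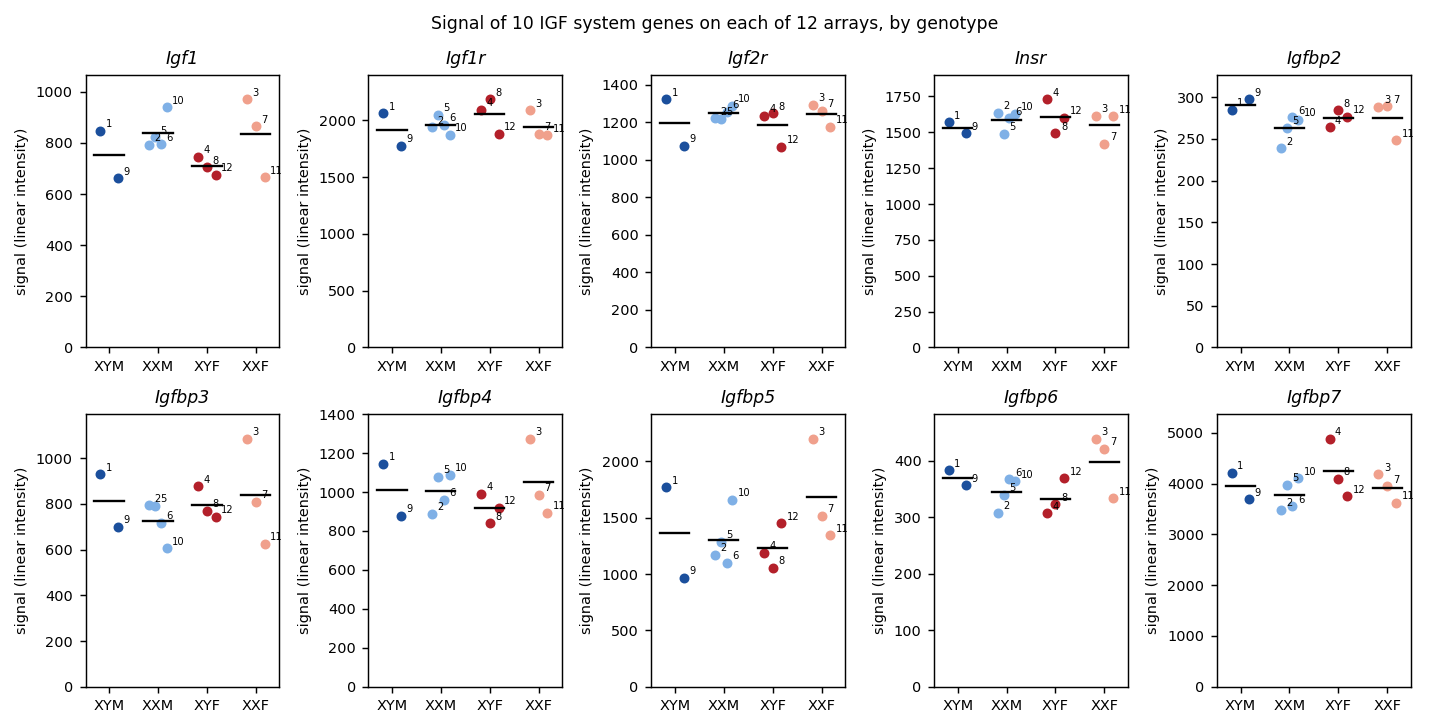
Signal (linear intensity, axes from 0) of the 10 IGF system genes on each of the 12 arrays, by genotype; points carry the array number and bars are genotype means of 2 XYM, 4 XXM, 3 XYF and 3 XXF arrays. Igf1r and Insr lie close to level across genotypes, while Igfbp5 spreads from 966 to 2200 with XXF array 3 at the top.

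Igfbp5, on chromosome 1, varied most of all members. IGFBP5 binds extracellular matrix as well as IGFs and is made by mesenchymal and smooth muscle cells in many tissues. Its signal was 1769 and 966 in XYM, 1170, 1286, 1101 and 1661 in XXM, 1189, 1056 and 1451 in XYF, and 2200, 1516 and 1343 in XXF. The 2 XYM arrays lay almost as far apart as the highest and lowest XXF arrays. With genotype means removed, its residual SD on the log2 scale was 0.35, at percentile 99.2 among 14449 named genes whose signal averaged 200 or more, and for which the median was 0.12. Igfbp5 averaged 1325 ± 321 in gonadal males against 1459 ± 400 in gonadal females (SD, n = 6 each), a difference of −0.13 (SE 0.18, adjusted p = 0.985 in limma). The intervals were correspondingly wide. The male to female ratio was 0.914 (95% interval 0.698 to 1.20) and the XY to XX ratio was 0.867 (0.662 to 1.14). The male minus female difference was −0.17, −0.09 and −0.14 within the successive sets of 4 arrays. It was −0.35 without XYM array 1 and 0.09 without XYM array 9, and neither value passed the threshold.

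Igfbp3, on chromosome 11, encodes the main carrier of IGFs in blood. It gave 929 and 700 in XYM, 794, 792, 717 and 606 in XXM, 877, 769 and 745 in XYF, and 1086, 810 and 624 in XXF. The residual SD was 0.26 on the log2 scale, at percentile 97.5. Igfbp3 was lower on arrays of higher number. Its mean signal was 921 on arrays 1 to 4, 772 on arrays 5 to 8 and 669 on arrays 9 to 12, and the first set (794 to 1086) did not overlap the last (606 to 745). Its male minus female difference was −0.18, −0.07 and −0.07 within the 3 sets, against a fitted −0.08 (SE 0.14). The fall was not particular to Igfbp3. The first and last sets were also apart for Igf1r. The set means of Igf1, Igf1r, Igf2r, Igfbp4 and Igfbp7 fell in the same order, and those of Insr, Igfbp2, Igfbp5 and Igfbp6 did not. The share of all probe sets with this pattern was not counted. What the array numbers stand for is not given in the labels.

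Igfbp4, also on chromosome 11, encodes a binding protein that mostly restrains IGF action and is cleaved by the protease pappalysin 1. It gave 1144 and 878 in XYM, 888, 1078, 961 and 1089 in XXM, 992, 840 and 918 in XYF, and 1274, 986 and 893 in XXF. The XYF arrays were the tightest and the lowest on average (917 ± 75.8, SD, n = 3, against 1051 ± 199 in XXF, SD, n = 3), with overlap. The XYF minus XXF difference of −0.18 (SE 0.15) was not significant (adjusted p = 1 in limma).

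Igfbp7, on chromosome 5, had the brightest of the 10 probe sets, although signals of different probe sets do not rank the abundance of their genes. IGFBP7, a low-affinity relative of the other binding proteins, is expressed by endothelium in many tissues. Its signal was 4216 and 3689 in XYM, 3485, 3979, 3551 and 4102 in XXM, 4884, 4097 and 3746 in XYF, and 4178, 3947 and 3623 in XXF. XYF array 4 stood above the other 11 arrays, which ran from 3485 to 4216. Its male minus female difference of −0.07 (SE 0.08) had the lowest unadjusted p of the members for gonadal sex, 0.393 (adjusted p = 0.985 in limma). That difference was −0.24 within arrays 1 to 4, −0.10 within arrays 5 to 8 and 0.08 within arrays 9 to 12.

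Igfbp6 and Igfbp2 had the dimmest probe sets. IGFBP6 prefers IGF2 to IGF1. Igfbp6, on chromosome 15, gave 383 and 357 in XYM, 308, 340, 367 and 364 in XXM, 307, 323 and 369 in XYF, and 439, 421 and 334 in XXF. XXF arrays 3 and 7 were the highest of the 12, and XXF array 11 lay among the other genotypes. The male minus female difference was 0.15 among XY and −0.20 among XX, an interaction of 0.35 (SE 0.17, 95% interval −0.03 to 0.74), the lowest interaction p of the members (0.0656 unadjusted, 1 adjusted in limma). Without XXF array 11 the interaction was 0.48 (unadjusted p = 0.0112), without XYF array 12 it was 0.43 (unadjusted p = 0.0355), and neither passed after adjustment. Igfbp2, on chromosome 1, gave 285 and 297 in XYM, 239, 264, 276 and 273 in XXM, 264, 284 and 277 in XYF, and 289, 289 and 248 in XXF. Its mean of 273.7 was under the background reference of 309.5, at percentile 93.0 of the olfactory receptor probe sets, and its differences are read with that limit. Igfbp6, at 359.5, was above that reference but below the 99th percentile (458.8), and the other 8 members were above both. The Igfbp6 mean was also under the Sry signal of gonadal females, which lack Sry (415.8 to 564.5).

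Tested together with all 35556 probe sets, 0 of 10 members passed an adjusted p of 0.05 in any comparison. For gonadal sex 0.00281% of all probe sets passed, which was Sry alone. For sex chromosome complement 0.0394% passed, and for the interaction 0%. Between pairs of genotypes, 0.0169% passed for XYF against XXF, 0.0169% for XYM against XXM, 0.00281% for XXM against XXF and 0.00562% for XYM against XYF. The moderated F test over all 4 genotypes called 0.0253%. With so few calls among all probe sets, a count of 0 members is no result about the members. At an unadjusted p of 0.05, still 0 of 10 members passed, beside 3.08% of all probe sets for gonadal sex, 2.57% for complement and 1.56% for the interaction. No member had groups that did not overlap, beside 0.0731% of all probe sets for gonadal sex and 0.166% for complement.

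The sizes of the member differences were like those of other genes for gonadal sex. The median absolute male minus female difference was 0.04 over the 10 members and 0.05 over the 19938 named genes, and 4 of 10 members were above 0. The median absolute XY minus XX difference was 0.07 for the members and 0.05 for the named genes, and 5 of 10 members were above 0. Across the 10 members the 95% intervals of the male to female ratio ran from 0.698 to 1.21, and those of the XY to XX ratio from 0.662 to 1.28. These are the outermost ends over the members, both lower ends being those of Igfbp5, and the intervals of steadier members such as Igf1r were narrower. The intervals do not show that the genotypes are equal. Between paired genotypes, the member with the lowest p was Igfbp6 for XYF minus XXF (−0.25, SE 0.12), XXM minus XXF (−0.20, SE 0.11) and XYM minus XYF (0.15, SE 0.13), and Igfbp2 for XYM minus XXM (0.15, SE 0.10). The lowest adjusted p over these comparisons was 0.978 in limma, for XYM minus XXM.

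**Figure D2:**
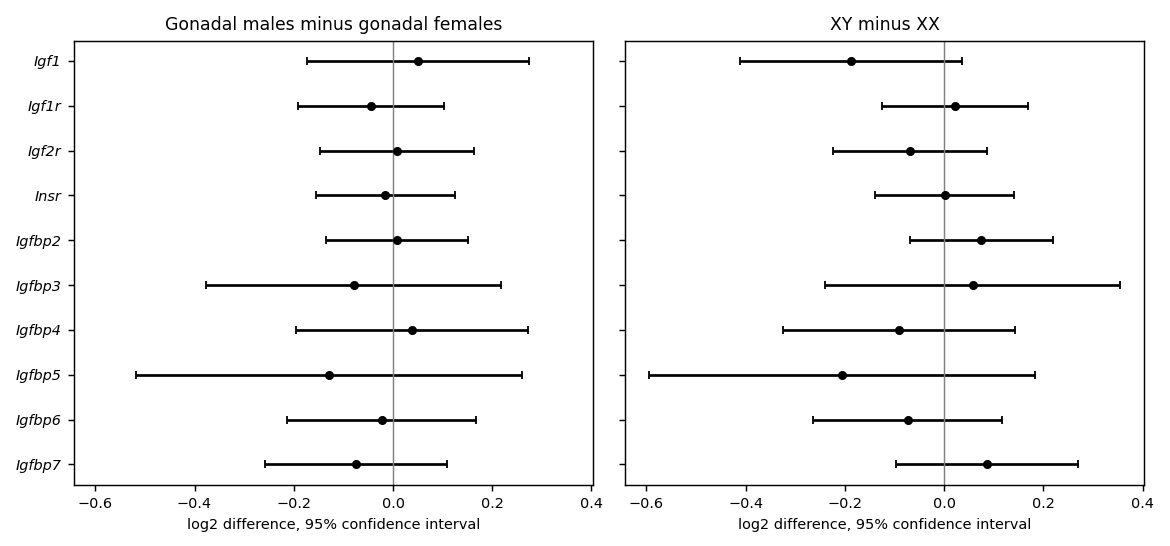
Fitted log2 differences of the 10 genes with 95% confidence intervals from limma, gonadal males minus gonadal females on the left and XY minus XX on the right, from 12 arrays. Every interval includes 0, and Igfbp5 has the widest.

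Ordered by mean signal, no neighbouring genotypes were apart for any member. Highest and lowest genotype were apart for Igf1, where XXM (793 to 939) exceeded XYF (675 to 745) by 1.18-fold in the means, and for Igfbp2, where XYM (285 and 297) exceeded XXM (239 to 276) by 1.11-fold below the background reference. The extreme genotypes were likewise apart for 22.2% of all probe sets, so 2 of 10 members is near the background. These pairs were chosen as the extremes of 4 genotypes and were not tested as such. For Igfbp4, Igfbp5 and Igfbp6 the order was the same, XXF, XYM, XXM and XYF from high to low, with a top to bottom ratio of 1.37 for Igfbp5, 1.19 for Igfbp6 and 1.15 for Igfbp4. XXF array 3 was the highest array for all 3 of these and also for Igf1 and Igfbp3. XYM array 9 was the lowest for Igf1, Igf1r and Igfbp5. XYM arrays 1 and 9 gave 1144 and 878 for Igfbp4 and 1769 and 966 for Igfbp5. The place of XYM in the order thus rested on array 1 for these 2 genes.

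Members varied together over arrays to different degrees. Of the 45 pairs, 42 had a Pearson correlation of log2 signal above 0, with a median of 0.31 and a range from −0.50 (Insr and Igfbp2) to 0.84. These are descriptions over 12 arrays that share a normalization and an array order. The 5 pairs at 0.7 or higher joined Igf1, Igf2r, Igfbp4, Igfbp5 and Igfbp6. Igfbp4 and Igfbp5 gave r = 0.84 (Spearman's rho 0.82), 0.84 with the means of the array sets removed, 0.73 without XXF array 3 and 0.61 without the 2 arrays farthest from the median of Igfbp4. Igf1 and Igfbp4 also gave 0.84 (rho 0.82, 0.83 with array set means removed and 0.74 without the 2 farthest arrays). Igf1 and Igf2r gave 0.78 (rho 0.84), Igf1 and Igfbp5 0.72, and Igfbp5 and Igfbp6 0.71. The last value was 0.53 without XXF array 3. Insr stood outside this group, with correlations to the other 9 members between −0.50 and 0.26. Igf1r, the receptor, and Igf1, its ligand, gave 0.25.

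**Figure D3:**
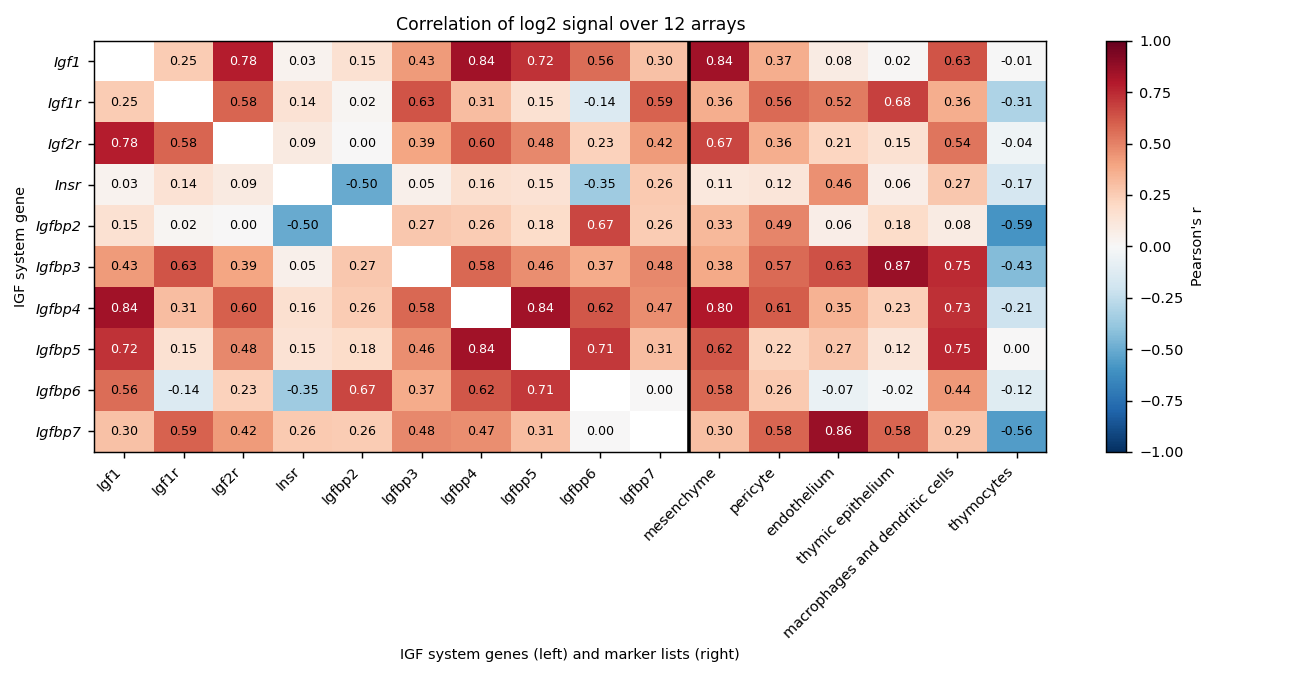
Pearson correlation of log2 signal over the 12 arrays between the 10 genes (left block) and between each gene and the mean log2 signal of marker lists of cell types (right block). Igf1, Igfbp4 and Igfbp5 form the reddest block, at 0.72 to 0.84, and Igfbp7 is highest with endothelium (0.86).

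The members also moved with markers of different cell types, and these pairings were made after the values had been seen. Igf1 and Igfbp4 followed the 7 mesenchyme markers (r = 0.84 and 0.80), and Igf1 kept 0.79 to 0.89 whichever single array was left out. Igfbp3 followed the 8 thymic epithelium markers (r = 0.87, rho 0.82), whose sum ran from 21104 on XXM array 10 to 26489 on XXF array 3, the same arrays that were lowest and highest for Igfbp3. With the means of the array sets removed, that correlation was 0.67. Igfbp7 followed the 6 endothelium markers (r = 0.86), whose sum was 9155 on XYF array 4 and 6151 to 7765 on the other arrays. Without XYF array 4 the correlation was 0.69. Igfbp5 was highest with the macrophage and dendritic cell markers (r = 0.75), of which 6 of 8 were above background, followed by mesenchyme (0.62). Without XXF array 3 the macrophage pairing gave 0.61. That list was not particular to Igfbp5, with r = 0.75 for Igfbp3, 0.73 for Igfbp4 and 0.63 for Igf1. Igfbp3 also gave 0.70 with 2 parathyroid markers, 1 of them above background, and 0.63 with endothelium. The pairings are therefore not distinct. Igf1r was highest with thymic epithelium (0.68, but 0.44 with array set means removed), Igf2r with mesenchyme (0.67) and Igfbp6 with mesenchyme (0.58). Insr and Igfbp2 reached 0.46 and 0.49 at most, and the value of Insr was 0.01 without XYF array 4. The part of cell content in any of these values was not tested.

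**Figure D4:**
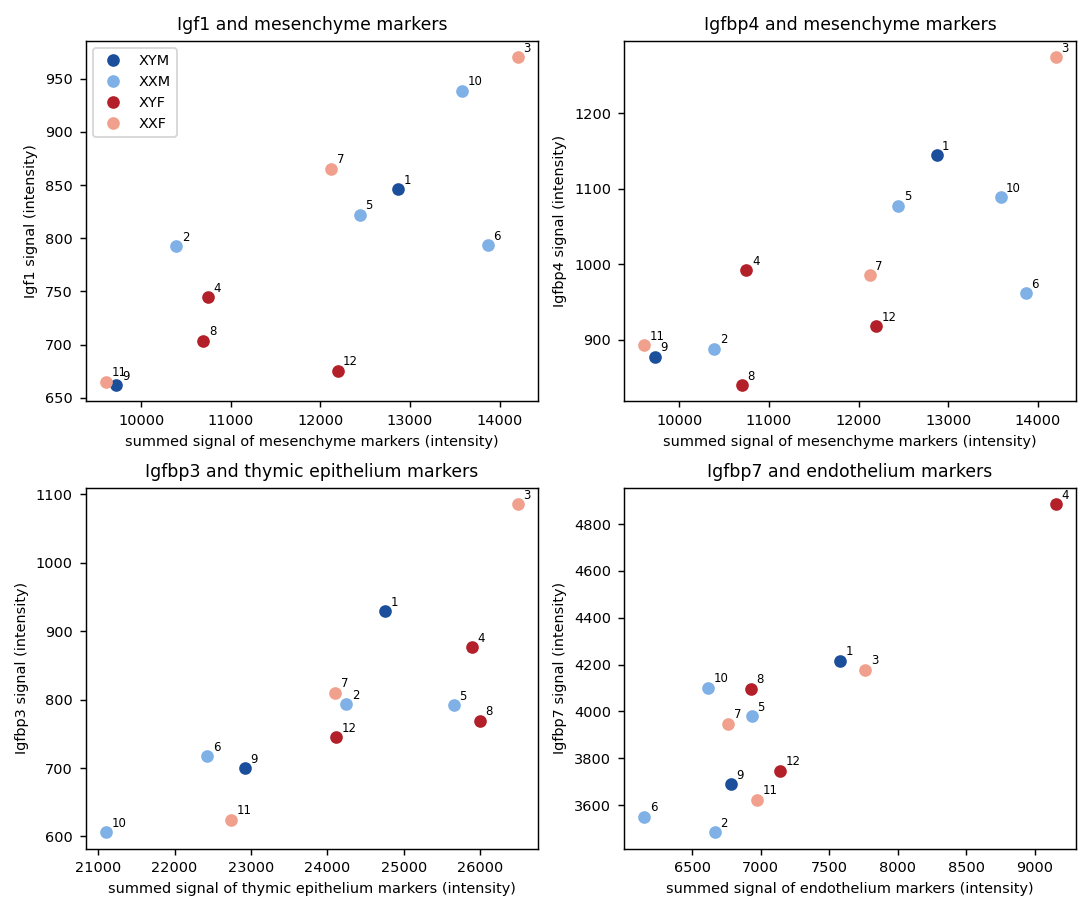
Signal of 4 genes (vertical axis, linear intensity) against the summed signal of a marker list (horizontal axis, linear intensity) on the 12 arrays, coloured by genotype and labelled with the array number; the axes do not start at 0. XXF array 3 is at the upper right for Igf1, Igfbp4 and Igfbp3, and XYF array 4 stands apart for Igfbp7.

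For the 3 members with the widest range, the genes that varied most like them were sought among 14448 other named genes that were likewise bright enough. For Igfbp5 these were Tmem108, a transmembrane protein gene (r = 0.86), Creb3l1, a transcription factor gene of secretory cells (0.85), and Pcolce, which encodes an enhancer of procollagen processing (0.84). For Igfbp3 they were Anxa1, encoding annexin A1 (0.96), Plau, encoding the urokinase plasminogen activator (0.93), and Penk, encoding proenkephalin (0.92). Anxa1 ranged from 309 to 511 and kept r = 0.90 with array set means removed. For Igfbp4 they were Ppic, a cyclophilin gene (0.92), Rarres2, encoding chemerin (0.91), and Pf4, encoding platelet factor 4 (0.89). Tmem108 and Pf4, with mean signals of 252 and 276, were under the background reference of 309.5. With so many genes searched over 12 arrays, high values arise readily, and the order of the leading genes is a description.

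The genes around the members were counted by role. Of 54 genes listed by role, 48 had a probe set of their own, and 0 of 48 passed an adjusted or an unadjusted p of 0.05 for gonadal sex, complement or the interaction. The background shares are those given above for the members. The differences were above 0 for 22 of 48 by gonadal sex (median −0.01) and for 18 of 48 by complement (median −0.02). The lists held 6 other ligands and binding proteins, 5 genes of the growth hormone axis, 7 binding protein proteases and their inhibitors, 2 Igf2 mRNA-binding proteins, 10 adaptors and 18 genes from PI3K to mTOR and FOXO.

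Among ligands and carriers, Igfals, the acid-labile subunit that stabilizes IGF complexes in serum, had a male minus female difference of 0.12 (SE 0.09). Of the growth hormone axis, Stat5b and Stat5a, which relay growth hormone receptor signals to the Igf1 gene, had male minus female differences of −0.02 and −0.04 and XY minus XX differences of −0.08 and −0.03. Pappa, the protease of IGFBP4, gave −0.07 by gonadal sex and −0.08 by complement, and Adam12, a metalloprotease that can cleave IGFBP3 and IGFBP5, gave 0.01 and −0.07. The lowest complement p on these lists belonged to Igf2bp3, which encodes an RNA-binding protein of growing tissues (−0.17, SE 0.08, unadjusted p = 0.0631, adjusted p = 1 in limma), while Igf2bp1 had a mean signal of 161, under the background reference, and gave 0.03. Among adaptors, Gab1 and Grb2 differed by 0.00 and 0.09 by gonadal sex, and Grb10, an imprinted inhibitor of insulin and IGF1 receptor signalling, gave −0.21 by complement (SE 0.15). Downstream, Pik3r1, the regulatory subunit of PI3K, and Rheb, the activator of mTORC1, gave −0.02 and −0.08 by gonadal sex. Foxo1, a transcription factor that AKT keeps out of the nucleus, gave −0.12 by complement (SE 0.06, unadjusted p = 0.0689, adjusted p = 1 in limma).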

How the data were processed

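The authors deposited 1 table of normalized intensity from 12 Affymetrix mouse gene arrays with 35556 probe sets. Per the submitters' notes they used PLIER and Affymetrix Expression Console 1.1, whereas the methods name RMA. The values are linear, and which of these made them is not settled here. There is no detection call or depth, and the number of arrays limits the precision. Gene names came from the platform annotation: 21789 probe sets had 1 symbol, 1621 several and 12146 none, and only those with 1 were named. Values under 1 (in 130 probe sets) were set to 1 before log2. Genotypes were fitted in 1 model with limma 3.58.1 in R 4.3.3 (lmFit, eBayes), with contrasts for gonadal sex, complement, their interaction and pairs of genotypes, with Benjamini-Hochberg adjustment across the whole table and a threshold of 0.05. All intervals are 95%. The script was tested on simulated data. Correlations used log2 signal, averaged over the markers of a list, with no test. Promoter sequences are from RefSeq (GRCm38.p6). The 10 members, the role and marker lists and the array sets were chosen with earlier results of these data known. Named genes were the members, the brightest gene and those of lowest p on each role list, and the 3 genes most like each of the 3 members of widest range. Some listed genes are not reported here. Alternatives covered normalization, offset, filters, model, moderation, array weights, probe set choice and leaving out each array. Python 3.11.15, pandas 2.3.3, scipy 1.17.1 and matplotlib 3.10.9 were used for the rest.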

Additional observations from a re-analysis of the deposited data

Results flagged for a closer look

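Of 50 groups of 4 to 7 arrays examined over the 10 genes, 2 had an array far from the rest, and chance alone marks about 1 in 20. Igfbp3 was 1086 on XXF array 3, where the next of the 7 XX arrays had 810.4. Igfbp4 was 1274 on the same array, where the next of the 6 gonadal female arrays had 991.9. XXF array 3 was also the highest of the 12 arrays for Igf1, Igfbp5 and Igfbp6 and for the summed markers of mesenchyme (14201) and thymic epithelium (26489).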

How the results depend on the processing

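In every comparison 0 of 10 members passed the adjusted threshold under all alternatives run. The lowest adjusted p was 0.482 for gonadal sex (Igfbp5 without XYM array 1), 0.654 for complement (Igf1 without XYM array 1) and 0.776 for the interaction (Igfbp6 with the array sets as a block). Leaving out single arrays, the probe sets called over the whole array numbered 1 to 4 for gonadal sex, 7 to 14 for complement and 0 to 2 for the interaction (1, 14 and 0 with all arrays). For gonadal sex 3 were called without XYM array 1 or 9, 2 without XYF array 8 and 4 without XYF array 12. For complement 7 were called without XYM array 1 and 8 without XXM array 5 or 6 or XXF array 7 or 11. For the interaction 1 was called without XYM array 1 or 9 or XYF array 8, and 2 without XYF array 12. Without moderation 8 were called for complement. With the array sets as a block, unadjusted p under 0.05 was found in 4103 probe sets for gonadal sex, against 1094 without it. Small differences changed sign. For gonadal sex these were Igf2r (−0.0098 with array weights), Insr (0.0035 with renewed quantile normalization, 0.038 averaged over its probe sets) and Igfbp2 (−0.0086 with renewed quantile normalization, −0.0046 in an additive model). For complement it was Insr (−0.032 with the block, −0.00082 with array weights) and for the interaction Igf2r (−0.0073 with array weights). Leaving out single arrays, the gonadal sex difference ran from −0.038 to 0.14 for Igf1, −0.099 to 0.0092 for Igf1r, −0.066 to 0.083 for Igf2r, −0.046 to 0.012 for Insr, −0.028 to 0.031 for Igfbp2, −0.18 to 0.023 for Igfbp3, −0.057 to 0.13 for Igfbp4, −0.35 to 0.089 for Igfbp5 and −0.084 to 0.015 for Igfbp6. The complement difference ran from −0.032 to 0.077 for Igf1r, −0.14 to 0.0057 for Igf2r, −0.030 to 0.027 for Insr, −0.045 to 0.16 for Igfbp3, −0.19 to 0.0052 for Igfbp4 and −0.42 to 0.013 for Igfbp5. The interaction ran from −0.11 to 0.24 for Igf1, −0.22 to 0.00031 for Igf1r, −0.14 to 0.16 for Igf2r, −0.0042 to 0.40 for Igfbp3, −0.0053 to 0.38 for Igfbp4 and −0.14 to 0.062 for Igfbp7. The cause of these changes was not tested. All 10 members were above background set at the 90th percentile of the olfactory receptors or the 95th of 170 vomeronasal ones, and 8 were at the 99th of the olfactory receptors. No paired analysis was possible because the groups share no replicate number in the labels. The block above is one of array sets taken from the array numbers, 2 of which hold 1 array of each genotype, and the labels do not call these arrays matched. Leaving out 1 XYM array leaves a lone array that is assumed to vary like the other genotypes.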
